A study of Mus musculus with 24 samples.

Results

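The batch dependence of the MHC CRE Only hearts was examined, that is, whether the difference between the 2 batches was the same in these hearts as in hearts with floxed Fkbp1a alleles. MHC CRE Only supplied 6 of the 24 libraries, 3 in batch 1 and 3 in batch 2, and its members were taken from the genotype and batch labels alone. These mice carry Cre recombinase driven by the α-myosin heavy chain (αMHC) promoter, which is active in cardiomyocytes and, per the study's design, from embryonic day 9, and no floxed Fkbp1a allele. The comparison groups were the 3 floxed genotypes, with 6 libraries each: FKl/l without Cre, FKl/l MCK+ with Cre from the muscle creatine kinase promoter, and FKl/l MHC+ with Cre from the αMHC promoter. FKl/l MCK+ and FKl/l MHC+ are deletion models of Fkbp1a, so the floxed reference mixes 1 control with 2 deletion genotypes. RNA came from whole hearts in all groups, and a name such as MHC CRE Only 1-3 gives genotype, batch and number. The labels give no age, do not define a batch, and do not state whether different libraries are different mice. The p-values therefore describe library-to-library spread, which may be technical.

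Cre-only mice serve in conditional deletion studies as the control for Cre itself, since the recombinase can act on the host genome without any floxed site, and long expression of αMHC-Cre is known to be able to harm cardiomyocytes. Such a control separates an effect of the driver from an effect of the deletion only if it is processed alongside the other genotypes and responds to processing as they do. In a whole heart, most RNA comes from cardiomyocytes and their mitochondria, and a lower level of a transcript from fewer cells of a type cannot be told apart from less of that RNA per cell.

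Gene counts per library ranged from 27799403 to 40412640. The heart markers Myh6 (15200 to 23400 CPM, that is counts-per-million values on scaled library sizes), Tnnt2 and Ryr2 were high in all 24 libraries. Fkbp1a (ENSMUSG00000032966, GRCm38 chromosome 2, 151542483 to 151561692, plus strand), the gene for the immunophilin FKBP12, had 139.6, 135.0 and 80.1 CPM in the batch 1 Cre-only libraries and 129.6, 126.0 and 123.6 CPM in those of batch 2. The library labelled MHC CRE Only 1-3 thus lay below the other Cre-only libraries and below the FKl/l libraries (at least 121 CPM). It was at the upper end of the deletion libraries, which ran from 43.4 to 81.5 CPM. Its level is unlike the rest of its labelled group, and the cause was not tested. The interaction for Fkbp1a was 0.36 (SE 0.21) and not called (adjusted p = 0.309), and it was 0.14 without that library. The summed level of airway markers was 1431 CPM in MHC CRE Only 2-3, 623.7 CPM in FKl/l 1-1 and 128 to 251 CPM in all other libraries. The defining airway gene Scgb1a1, named after its values were seen, had 370 CPM in MHC CRE Only 2-3, 110 CPM in FKl/l 1-1 and at most 19.1 CPM in the other libraries.

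The library labelled MHC CRE Only 1-3 also stood apart on the axis that separated the batches. The first principal component held 33.9% of the variance over 9641 genes with a mean above 5 CPM. Its scores ran from -18.3 to -11.9 in the 9 floxed batch 1 libraries and from 9.76 to 15.9 in the 9 floxed batch 2 libraries. The Cre-only batch 2 libraries scored 8.31 to 11.2, beside floxed batch 2. In batch 1, MHC CRE Only 1-1 and 1-2 scored -8.05 and -5.90, above every floxed batch 1 library, and 1-3 scored 9.69, among the batch 2 libraries. Of 5296 genes that differed between batches in floxed hearts, 65.2% in MHC CRE Only 1-1 and 62.4% in 1-2 were nearer to the floxed batch 1 mean than to the batch 2 mean, against 25.1% in 1-3. In the batch 2 libraries these shares were 24, 18 and 27.4%. On other measures 1-3 lay nearer batch 1. Mitochondrially encoded genes took 36.2% of its counts, against at most 29.9% in batch 2 libraries, though floxed batch 1 reached down to 27.6%. On the second component (14.3% of the variance), where the floxed batches overlapped, 1-3 scored 8.49. There 1-1 and 1-2 scored 8.18 and 2.33, and Cre-only batch 2 scored -14.4 to -7.70. Whether 1-3 carries the wrong label was not tested, and the interactions below are given with and without it. Where a gene's name is followed by a pair of values in parentheses, the first is the log2 interaction with all libraries and the second that without the library labelled MHC CRE Only 1-3.

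**Figure D1:**
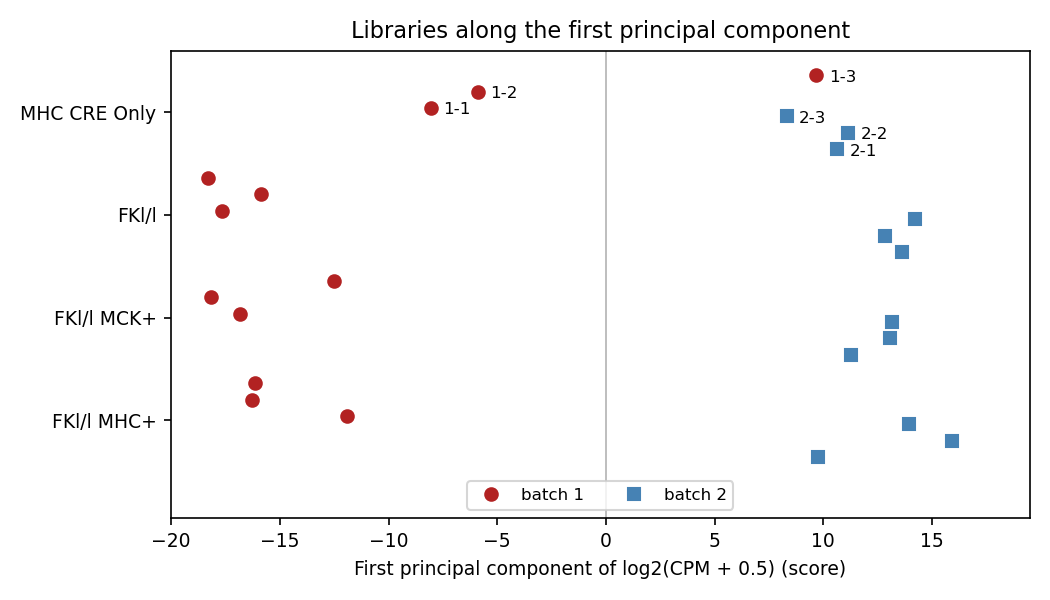
Score of each library on the first principal component of log2(CPM + 0.5) (x axis), by genotype (y axis); red circles are batch 1 and blue squares batch 2, and the Cre-only libraries carry their numbers. The batches separate in every floxed genotype, while the library labelled MHC CRE Only 1-3 scores 9.69, within the range of the batch 2 libraries.

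The interaction is the log2 difference of batch 2 from batch 1 in MHC CRE Only minus the mean of that difference over the 3 floxed genotypes. A positive value means that the Cre-only level, relative to floxed, was higher in batch 2 than in batch 1. Of 16812 genes tested, 1094 (6.51%) were called at an adjusted p under 0.05 by edgeR's quasi-likelihood test, 320 positive (1.9%) and 774 negative (4.6%), and 101 of them reached 2-fold. Over all genes tested the median size of the batch difference was 0.19 in Cre-only and 0.22 in floxed hearts on the log2 scale. In the called genes, which the test chose for unequal batch differences, it was 0.16 and 0.40. The batch differences had opposite signs in 785 of them, had the same sign with a smaller size in Cre-only in 291, and were larger in Cre-only in 18. Of the 1094, 942 were also called in the floxed batch difference and 112 in the Cre-only one. For most of them the Cre-only sign is thus that of a difference that was not called, and an opposite sign is not shown to be a reversal. Across the 9641 genes above 5 CPM, the slope of the Cre-only batch difference on the floxed one was 0.321 (Pearson r 0.375, a description across genes, which are not independent). Each floxed genotype set against the mean of the other floxed genotypes gave a slope of 0.937 for FKl/l, 0.795 for FKl/l MCK+ and 0.621 for FKl/l MHC+.

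With all libraries, calls between Cre-only and floxed hearts lay mostly in batch 1. Cre-only differed from floxed hearts in 1392 genes in batch 1 (8.28%), 1039 of them higher in Cre-only (6.18%), and in 75 genes in batch 2 (0.446%), 57 of them higher (0.339%). Without MHC CRE Only 1-3 these counts were 26 in batch 1 and 104 in batch 2, so the balance between the batches rested on that library. With any 1 library left out the batch 2 count lay between 3, without MHC CRE Only 2-3, and 444, without FKl/l MHC+ 2-1. Of the 1094 genes of the interaction, 631 were also called in batch 1 and 41 in batch 2; these contrasts use the same libraries. Between batches, 6846 genes (40.7%) differed in floxed hearts and 717 (4.26%) in Cre-only hearts, with 18 libraries in the first comparison and 6 in the second. With 1 floxed genotype as the reference, 671 genes were called against FKl/l (3.99%), 352 against FKl/l MCK+ (2.09%) and 213 against FKl/l MHC+ (1.27%). Without MHC CRE Only 1-3 each of these counts was 0 by edgeR, with 3002, 2821 and 2171 genes at an unadjusted p under 0.05. In 1092 of the 1094 genes of the interaction the sign was the same against each of the 3 floxed genotypes. The genes were called against the mean of these 3 with the same Cre-only libraries, so this agreement was largely built in and is no check. For some named genes the size differed between these references, as given below. With the other genotypes in turn set against the mean of the remaining genotypes, FKl/l MHC+ gave 101 genes (0.601%). FKl/l and FKl/l MCK+ gave 0 in edgeR's test, where 1756 and 1837 genes had an unadjusted p under 0.05, and DESeq2 called 11 for FKl/l. These contrasts share all libraries.

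**Figure D2:**
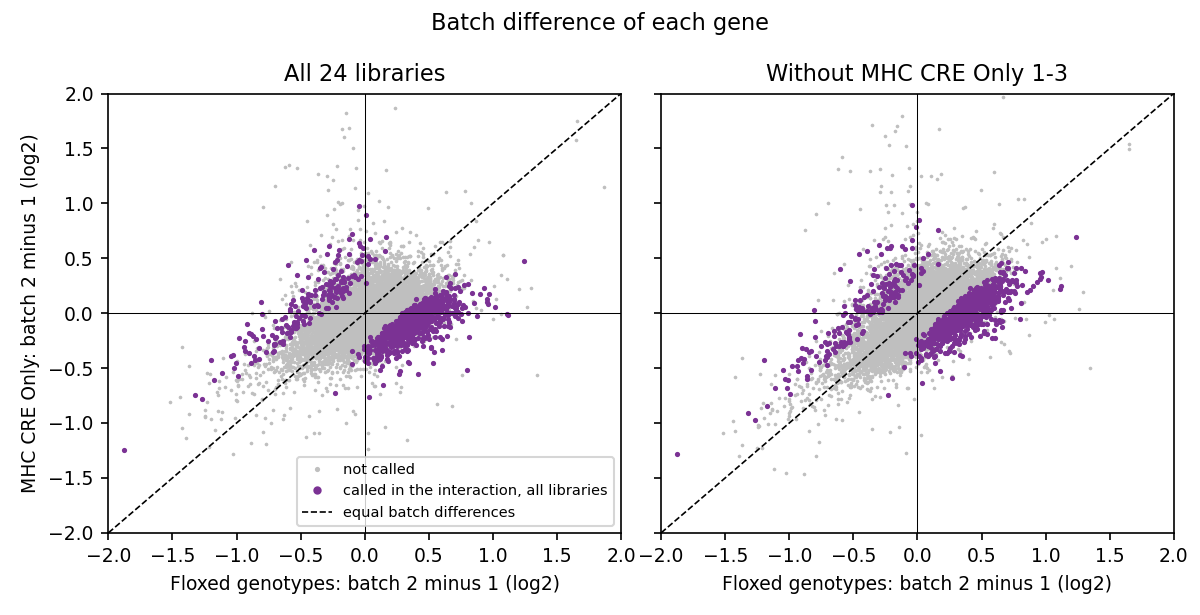
Batch 2 minus batch 1 of each of 9641 genes above 5 CPM, in the floxed genotypes (x axis, log2) and in MHC CRE Only (y axis, log2), with all libraries (left) and without MHC CRE Only 1-3 (right); purple points are the 930 plotted genes called in the interaction with all libraries, grey points all others, and the dashed line marks equal differences. The axes end at 2, which leaves out 16 genes on the left and 18 on the right. Most called genes lie between the dashed line and the x axis or across it. Of all 1094, 785 have batch differences of opposite sign, and 112 were called in the Cre-only batch difference.

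The calls depended on which Cre-only libraries were included. Without the library labelled MHC CRE Only 1-3, edgeR called 0 genes in the interaction, with a smallest adjusted p of 0.0536, and 2898 genes (17.2%) had an unadjusted p under 0.05, against 4038 (24%) with all libraries. At an adjusted p under 0.1 it called 409 genes without that library and 2115 with it. The median size of the interaction in the 1094 genes went from 0.49 to 0.40; these genes were chosen in a fit that held the library, so their values without it are no independent check. Without it the batch difference within Cre-only rose to 1193 genes, and the slope on the floxed batch difference was 0.496. Without MHC CRE Only 2-3, the library with the highest airway marker sum, 86 genes were called, 85 of them among the 1094, and the batch 2 difference fell from 75 genes to 3. Leaving out MHC CRE Only 2-1 gave 461 genes and leaving out 2-2 gave 695, while the other fits that left out 1 library gave between 842 and 1491.

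**Figure D3:**
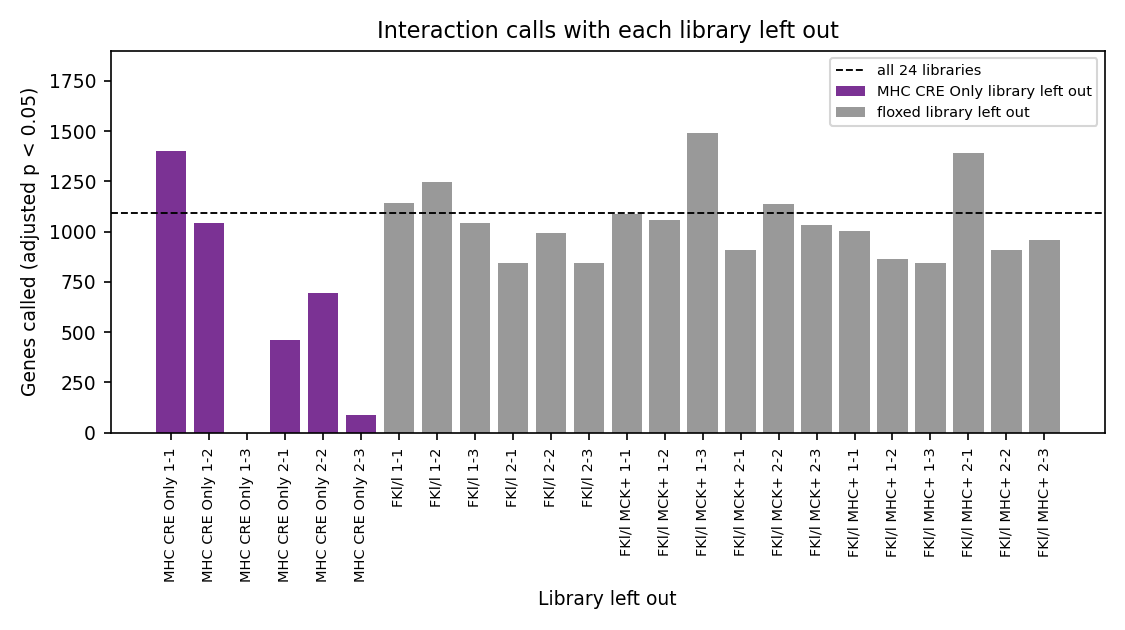
Number of genes called in the interaction (y axis) when each library in turn is left out (x axis); purple bars are Cre-only libraries, grey bars floxed libraries, and the dashed line marks the 1094 genes called with all 24. The bar for MHC CRE Only 1-3 is at 0 and that for MHC CRE Only 2-3 at 86.

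Genes of calcium handling, which move calcium into and out of the cardiomyocyte cytosol at each beat, had 7 of 24 members called (29.2%, against 6.51% of all genes), all 7 negative. Over the whole list 15 interactions were negative and 9 positive, with a list median of -0.20 against 0.02 over all genes, and 0 were called without MHC CRE Only 1-3 (median -0.17). Atp2a2 (chromosome 5, 122453513 to 122502225), the SERCA2 pump that returns calcium to the sarcoplasmic reticulum, had 8772, 9691 and 12350 CPM in batch 1 and 10870, 10890 and 9971 CPM in batch 2 of MHC CRE Only. In floxed hearts it ran from 5541 through a median of 7056 to 8282 CPM in batch 1 and from 9262 through 11460 to 11790 CPM in batch 2. All 3 Cre-only batch 1 libraries were above all 9 floxed ones, the batches of floxed hearts did not overlap, and the Cre-only batches did. The interaction was -0.66 (SE 0.144, adjusted p = 0.012) and -0.51 without 1-3 (unadjusted p = 0.00093). Slc8a1, the sodium-calcium exchanger, had 164, 174 and 225 CPM in batch 1 and 185.5, 174 and 162 CPM in batch 2, where all 3 lay below the floxed libraries (196 to 242 CPM). In batch 1, 1-1 and 1-2 lay within the floxed range (128 to 182 CPM) and 1-3 above it. The Slc8a1 interaction was -0.60 (SE 0.114, adjusted p = 0.00959) and -0.45 without 1-3. Cacnb2, a calcium channel subunit (-0.68 and -0.48), and Casq2, the calcium buffer of the sarcoplasmic reticulum (-0.42 and -0.39), were also called.

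Among cardiac ion channels 3 of 25 were called (12%, against 6.51% of all genes), all negative (median -0.14, and -0.06 without 1-3). Kcnj11 (-0.43 and -0.33) and Abcc9 (-0.45 and -0.38), the pore and the sulfonylurea receptor of the ATP-sensitive potassium channel, were among them. Kcnj11 gave -0.59 against FKl/l alone, -0.51 against FKl/l MCK+ and -0.20 against FKl/l MHC+. Chrm2, the muscarinic receptor through which the vagus slows the heart, was among the genes with the smallest p. It had 72.5, 73.3 and 74.4 CPM in batch 1 and 60.9, 61.4 and 66.6 CPM in batch 2 of MHC CRE Only. Its floxed range was 49.9 to 70.4 CPM in batch 1 and 69.7 to 96.4 CPM in batch 2. The Cre-only libraries were above every floxed library in batch 1 and below every one in batch 2 (interaction -0.71, SE 0.125, adjusted p = 0.0094), and without 1-3 the interaction was -0.70.

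Sarcomere and Z-disc genes had 3 of 26 called (11.5%, against 6.51%), all negative (median -0.23, and -0.18 without 1-3). Ttn, the giant spring protein of the sarcomere, had 2818, 2931 and 3308 CPM in batch 1 and 2482, 2275 and 2407 CPM in batch 2 of MHC CRE Only. For batch 1, 1-1 and 1-2 were within the floxed range (2275 to 2970 CPM) and 1-3 was above it. The batch 2 values lay below all floxed batch 2 libraries (2593 to 3211 CPM), and the interaction was -0.47 (SE 0.11, adjusted p = 0.0157) and -0.40 without 1-3. Nebl (-0.44 and -0.36) and Pdlim5 (-0.50 and -0.44), both of the Z-disc, were the others.

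**Figure D4:**
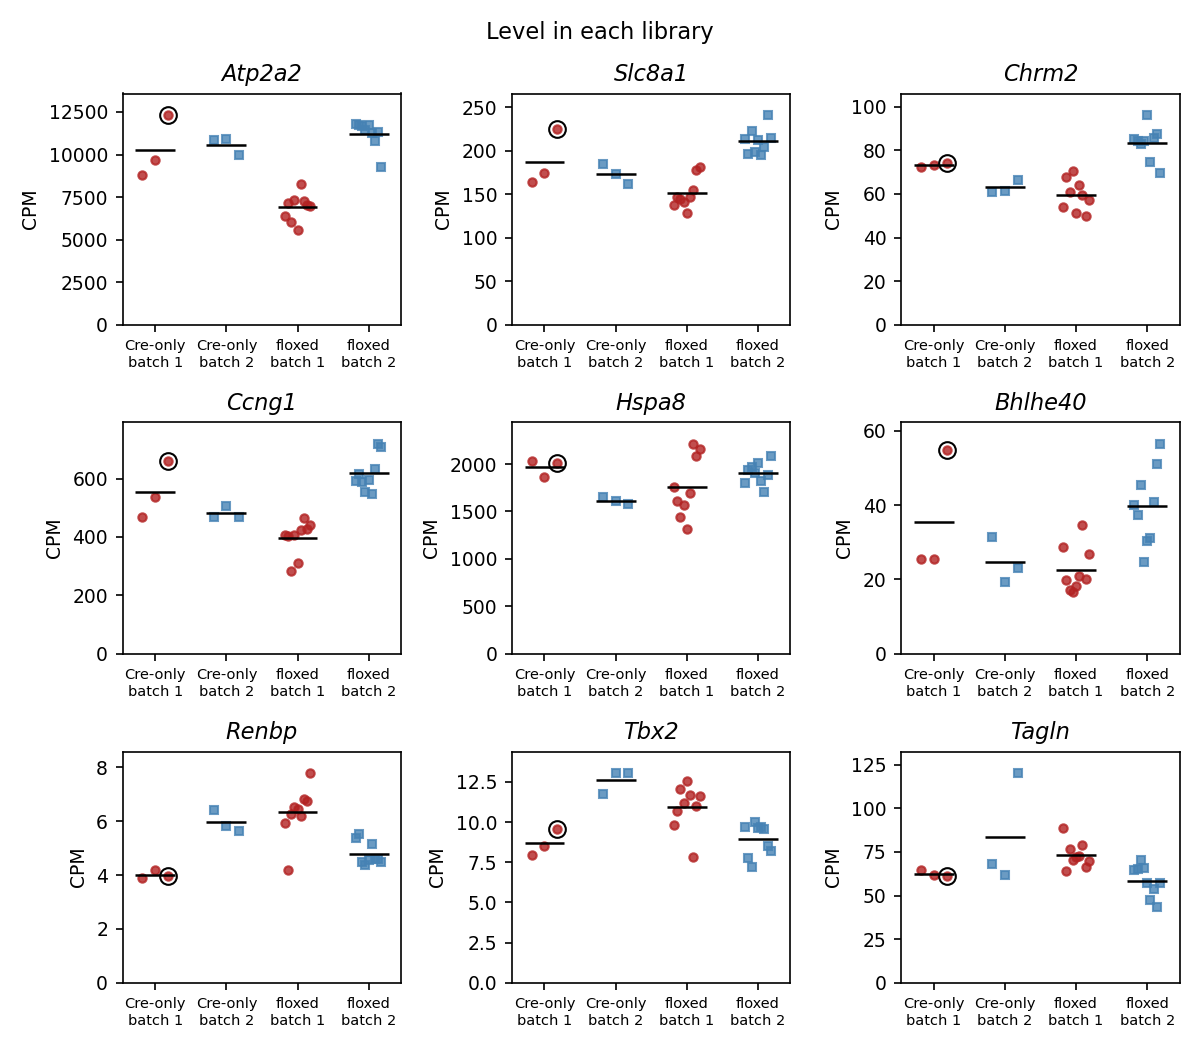
CPM of 9 named genes (y axis, from 0) in the Cre-only and floxed libraries of each batch (x axis); each point is a library, red circles batch 1 and blue squares batch 2, bars are means, and the black ring marks MHC CRE Only 1-3. For Chrm2 the 3 Cre-only libraries sit above all floxed libraries in batch 1 (72.5 to 74.4 CPM) and below all of them in batch 2, and for Bhlhe40 the ringed library is far above the other Cre-only libraries.

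Enzymes of the tricarboxylic acid cycle, which oxidises acetyl groups in mitochondria, had the most calls of the lists described, 8 of 23 (34.8%, against 6.51% of all genes), all negative (median -0.23, and -0.25 without 1-3). Ogdh, a subunit of the oxoglutarate dehydrogenase complex, had 2041, 2007 and 2447 CPM in batch 1 and 2210, 2240 and 2053 CPM in batch 2 of MHC CRE Only. The batch 1 values were above all 9 floxed libraries (1329 to 1917 CPM), and the batch 2 values overlapped with floxed ones (2071 to 2434 CPM). Its interaction was -0.46 (SE 0.119, adjusted p = 0.0237) and -0.36 without 1-3. Pdha1 of pyruvate dehydrogenase (-0.45 and -0.36), Idh3a of isocitrate dehydrogenase (-0.38 and -0.38) and the aspartate aminotransferase Got2 (-0.36 and -0.32) were named by the same rule. Set against FKl/l, FKl/l MCK+ and FKl/l MHC+ in turn, Ogdh gave -0.68, -0.45 and -0.25. Got2 gave -0.46, -0.43 and -0.20, and Pdha1 -0.48, -0.22 and -0.65. Fatty acid oxidation, the main fuel pathway of the adult heart, had 4 of 26 called (15.4%, against 6.51%), all negative (median -0.22, and -0.25 without 1-3). Acsl1, which activates fatty acids with coenzyme A, had 390, 428 and 533 CPM in batch 1, above all floxed libraries (264 to 381 CPM), and 436, 487 and 478 CPM in batch 2. Its interaction was -0.66 (SE 0.126, adjusted p = 0.00959) and -0.52 without 1-3. The fatty acid transporter Cd36 (-0.44 and -0.42), Etfdh (-0.39 and -0.38) and Hadhb (-0.35 and -0.33) were the others. Nuclear genes of oxidative phosphorylation gave 0 of 77 called by edgeR with all libraries, with a median of 0.03, and cytosolic ribosomal protein genes 0 of 78 (median 0.05). Both medians changed sign without 1-3, to -0.08 and -0.07.

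Of the 13 mitochondrially encoded protein genes 2 were called (15.4%, against 6.51% of all genes), both negative (median -0.42 with and without 1-3). The complex I subunit gene mt-Nd2 had 20520, 22750 and 27790 CPM in batch 1 and 13660, 14100 and 14120 CPM in batch 2 of MHC CRE Only. The batch 2 values were below all floxed batch 2 libraries (15030 to 18410 CPM), and the interaction was -0.80 (SE 0.205, adjusted p = 0.0247) and -0.67 without 1-3. Floxed batch 1 libraries ran from 9623 to 20550 CPM, with 9623 CPM in FKl/l 1-3 and 11720 CPM in FKl/l MCK+ 1-2. For mt-Nd5 the interaction was -0.80 and -0.50 without 1-3, which had 24140 CPM. All mitochondrially encoded genes together took 33.9, 35.2 and 36.2% of counts in batch 1 and 25.7, 26.5 and 26.8% in batch 2 of MHC CRE Only. In floxed hearts the share ran from 27.6 through 34.9 to 36.5% in batch 1 and from 27.4 through 28.9 to 29.9% in batch 2. The lowest floxed batch 1 shares were those of FKl/l 1-3 (27.6%) and FKl/l MCK+ 1-2 (29.1%). The interaction of the mitochondrially encoded share was -4.01 percentage points (2-sided exact permutation p = 0.0529, the same after adjustment over 2 library measures), so it missed the threshold. With 1 library left out this p ran from 0.0396 to 0.155, and the interaction was smallest without FKl/l 1-3, at -3.26 points. For library size it was 5040000 counts (exact permutation p = 0.0397, adjusted 0.0529).

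Circadian clock genes form feedback loops in which CLOCK and BMAL1 bind E-boxes (CACGTG) and drive their own repressors, and their transcripts vary with the hour of day. Of 24 such genes, 6 were called (25%, against 6.51% of all genes), all negative. The list median was -0.35 and went to -0.12 without the library labelled MHC CRE Only 1-3. The repressor Bhlhe40 had 25.5, 25.6 and 55.0 CPM in batch 1 and 31.4, 19.4 and 23.2 CPM in batch 2. Ciart, another repressor, had 3.03, 2.63 and 7.89 CPM in batch 1 and 1.02, 1.06 and 1.18 CPM in batch 2. For both genes 1-3 was the highest of the 6 and above every floxed batch 1 library (at most 34.6 and 3.84 CPM). Interactions were -1.32 (SE 0.33, adjusted p = 0.0286) for Bhlhe40 and -1.58 (SE 0.412, adjusted p = 0.0281) for Ciart, and -0.85 and -0.90 without 1-3. Tef, a clock output factor, gave -0.62 and -0.31 without 1-3, and the kinase gene Wee1 -0.63 and -0.51. The output gene Dbp, named after its values were seen, had 95.9 CPM in 1-3 and 14.7 to 23.5 CPM in the other Cre-only libraries, and Arntl, which encodes BMAL1, had 7.21 against 15.8 to 23.5 CPM. Neither was called. Hour of collection is not given in the labels.

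The E-box is shown here in the 250 bases before the start of Ciart and of Tef, because these are the called clock genes whose promoter in the RefSeq table (GRCm38.p6) held it. CACGTG, which reads the same on both strands, is in capitals. Of the 6 called clock genes 3 had a promoter in the table, and 2 of them held the motif, against 6.02% of all 32851 promoters; this is a description of letters, not of binding. The other motif searched, the heat shock element as GAANNTTC, was in 0 of the 4 called heat shock response genes with a listed promoter, against 6.69% of all promoters. The opposite order of its repeats was not searched, so this count does not show that the element is absent from them. The 250 bases before Ciart lie at chr3:95882229-95882478 on the minus strand and hold CACGTG 3 times, with first bases at -116, -58 and -44 from the start. Those of the first of 2 Tef promoters lie at chr15:81802423-81802672 on the plus strand and hold CACGTG once, at -127.
Ciart: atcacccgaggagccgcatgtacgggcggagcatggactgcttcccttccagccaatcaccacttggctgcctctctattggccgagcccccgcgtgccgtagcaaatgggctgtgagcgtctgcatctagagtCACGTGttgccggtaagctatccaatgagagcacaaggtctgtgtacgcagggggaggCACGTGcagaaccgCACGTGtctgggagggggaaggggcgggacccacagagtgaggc
Tef: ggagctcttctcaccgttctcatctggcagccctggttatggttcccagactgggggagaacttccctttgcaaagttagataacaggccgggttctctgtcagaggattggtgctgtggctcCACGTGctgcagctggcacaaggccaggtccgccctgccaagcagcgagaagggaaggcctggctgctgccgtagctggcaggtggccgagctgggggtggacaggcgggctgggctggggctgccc

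Heat shock response genes encode chaperones and co-chaperones that refold damaged proteins. Of 22, 5 were called (22.7%, against 6.51% of all genes), all negative, and all 22 interactions were negative (median -0.34, and -0.29 without 1-3). Hspa8, the constitutive HSC70 chaperone, had 2027, 1864 and 2006 CPM in batch 1 and 1655, 1605 and 1574 CPM in batch 2 of MHC CRE Only, the latter below all floxed batch 2 libraries (1700 to 2089 CPM). The batch 1 values lay within the floxed batch 1 range (1313 to 2216 CPM). The Hspa8 interaction was -0.42 (SE 0.112, adjusted p = 0.0281) and -0.40 without 1-3. It was -0.54 against FKl/l alone, -0.615 against FKl/l MCK+ and -0.10 against FKl/l MHC+ (adjusted p = 0.762 in edgeR's test). Dnajb4 had 53.4, 57.6 and 74.1 CPM in batch 1 and 49.0, 51.4 and 48.4 CPM in batch 2, again below the floxed batch 2 range (56.7 to 84.8 CPM). The floxed batch 1 range (35.3 to 55.8 CPM) held 1-1, with 1-2 and 1-3 above it. The Dnajb4 interaction was -0.84 (SE 0.175, adjusted p = 0.0124) and -0.68 without 1-3. The co-chaperones Chordc1 (-0.69 and -0.59) and Bag3 (-0.51 and -0.46) were called too.

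Targets of p53, a factor activated by DNA damage, had 4 of 24 called (16.7%, against 6.51%), all negative (median -0.19, and -0.14 without 1-3). Ccng1, which encodes cyclin G1, had 468, 536 and 662 CPM in batch 1 and 469, 506 and 467 CPM in batch 2 of MHC CRE Only. Floxed libraries ran from 284 to 466 CPM in batch 1 and from 547 to 720 CPM in batch 2. The Cre-only libraries were above all floxed ones in batch 1 and below all in batch 2, and those of the Cre-only batches overlapped with each other. Its interaction was -0.85 (SE 0.143, adjusted p = 0.0094) and -0.70 without 1-3 (adjusted p = 0.0536). The stress sensor Sesn1 (-0.57 and -0.41), the ribonucleotide reductase subunit Rrm2b (-0.64 and -0.47) and Perp (-0.40 and -0.29) followed.

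**Figure D5:**
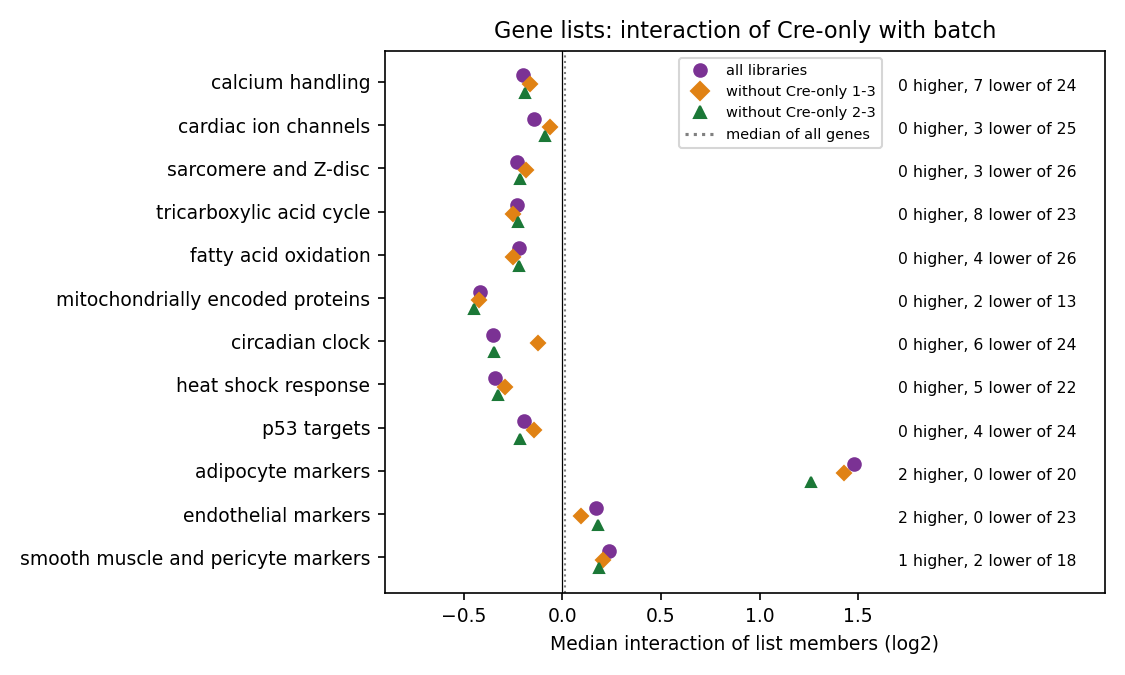
Median interaction (x axis, log2) of the members of 12 gene lists (y axis) with all libraries (circles), without MHC CRE Only 1-3 (diamonds) and without MHC CRE Only 2-3 (triangles), with the number of members called at the right; the dotted line is the median of all genes. Of the lists drawn, the circadian clock list moves most without 1-3, from -0.35 to -0.12, and the airway list, with a median of 4.43, is off the scale and not drawn.

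The lists of other cell types named here had positive medians. The adipocyte list had 2 of 20 called (10%, against 6.51% of all genes), Fabp4 and Aqp7, both positive (median 1.48, and 1.43 without 1-3). Its summed level was 991 to 1186 CPM in batch 1 and 1265 to 1653 CPM in batch 2 of MHC CRE Only, against 997 to 1543 and 811 to 1702 CPM in floxed hearts. Fabp4, a fatty acid binding protein also made by capillary endothelium, had 186.5, 230 and 185 CPM in batch 1 and 204, 215 and 258 CPM in batch 2, which overlapped, with an interaction of 0.62 (adjusted p = 0.0288) and 0.56 without 1-3. The glycerol channel Aqp7 gave 0.78 and 0.65 without 1-3. Against FKl/l, FKl/l MCK+ and FKl/l MHC+ in turn, Fabp4 gave 0.64, 1.01 and 0.19, and Aqp7 0.97, 0.97 and 0.40. The edgeR adjusted p against FKl/l MHC+ was 0.669 for Fabp4 and 0.444 for Aqp7. The airway list had 1 of 23 called (4.35%, below the 6.51% of all genes), Tppp3 (0.51 and 0.37), with a list median of 4.43 that was 1.44 without MHC CRE Only 2-3. Endothelial markers had 2 of 23 called (8.7%, near the 6.51% of all genes), both positive: the junction protein Esam (0.33 and 0.33) and Fabp4 again. Smooth muscle and pericyte markers had 3 of 18 called (16.7%, against 6.51% of all genes), 1 positive and 2 negative, though the list median was positive (0.23, and 0.21 without 1-3). Tagln, an actin-binding protein of smooth muscle, was positive (0.76, adjusted p = 0.0442) and had 120.5 CPM in MHC CRE Only 2-3 against 61.3 to 68.1 CPM in the other Cre-only libraries. Its interaction was 0.40 without 2-3 (adjusted p = 0.135) and 0.74 without 1-3. The smooth muscle and cardiac coactivator Myocd (-0.68 and -0.52) and the channel gene Abcc9, given above, were negative. The cardiomyocyte marker list itself had 4 of 15 called (26.7%, against 6.51%), all negative (median -0.12, and -0.23 without 1-3). In MHC CRE Only its summed level was 84700 ± 4710 CPM in batch 1 and 73610 ± 1507 CPM in batch 2 (SD over 3 libraries). In floxed hearts it was 82680 ± 3615 and 78260 ± 2183 CPM (SD over 9 libraries). This sum was lower in batch 2 in both groups. In floxed hearts the median batch difference was 0.15 for calcium handling, 0.25 for ion channels and -0.08 for sarcomere and Z-disc genes. In MHC CRE Only these medians were -0.03, -0.02 and -0.24. The marker list shares members with these lists, such as Atp2a2 and Ttn. The part of any cell type in the other results was not tested.

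Among the largest positive interactions, Renbp, which encodes renin-binding protein (chromosome X, 73922121 to 73930850), had 3.87, 4.18 and 3.95 CPM in batch 1 and 6.40, 5.80 and 5.65 CPM in batch 2 of MHC CRE Only. Floxed libraries ran from 4.18 to 7.81 CPM (median 6.47) in batch 1 and from 4.36 to 5.53 CPM (median 4.60) in batch 2. The Cre-only libraries were at the foot of the floxed range or below it in batch 1 and above all floxed libraries in batch 2. Its interaction was 0.97 (SE 0.16, adjusted p = 0.0094) and 0.96 without 1-3. Tbx2, a transcriptional repressor of the atrioventricular canal, had 7.97, 8.50 and 9.55 CPM in batch 1 and 11.8, 13.1 and 13.1 CPM in batch 2, the former within the floxed batch 1 range (7.83 to 12.5 CPM) and the latter above that of batch 2 (7.20 to 10.0 CPM). Its interaction was 0.84 (SE 0.149, adjusted p = 0.0094) and 0.91 without 1-3. Itgb4, the integrin subunit of epithelial hemidesmosomes, had 4.37, 4.42 and 4.52 CPM in batch 1 and 7.65, 6.93 and 11.6 CPM in batch 2, highest in 2-3, and its interaction went from 1.02 to 0.76 without that library and was 1.03 without 1-3. Csad, an enzyme of taurine synthesis (1.04 and 1.01), Rbmx2 (1.04 and 0.87), Ccdc191 (0.99 and 0.87), Rasd1 (0.95 and 1.05), Id2, an inhibitor of helix-loop-helix factors (0.94 and 1.00), Slc12a9 (0.93 and 0.82), the BCL2 antagonist Bmf (0.89 and 0.82), the macrophage chemokine receptor Cx3cr1 (0.89 and 0.70) and the centrosomal Cep250 (0.87 and 0.82) were also among the highest. By reference, in the order FKl/l, FKl/l MCK+ and FKl/l MHC+, Rasd1 gave 1.58, 0.95 and 0.31. Cep250 gave 1.07, 1.09 and 0.46, and Slc12a9 1.03, 1.23 and 0.52. Among floxed batch 1 libraries, Cep250 had 18.8 CPM in FKl/l 1-3 and 20.3 CPM in FKl/l MCK+ 1-2, where the median was 11.2 CPM.

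Pm20d2 had the lowest interaction among the genes named, -1.74 (SE 0.393, adjusted p = 0.0164), with 1.72, 2.43 and 4.46 CPM in batch 1 and 3.77, 3.87 and 3.95 CPM in batch 2 of MHC CRE Only. Its floxed libraries ran from 0.566 to 2.12 CPM in batch 1 and from 4.47 to 9.28 CPM in batch 2, so all 3 Cre-only batch 2 libraries lay below them. Without 1-3 the interaction was -1.26. Pdpr, the regulatory subunit of pyruvate dehydrogenase phosphatase, gave -1.12 (SE 0.205, adjusted p = 0.00959), with 8.72, 11.3 and 15.0 CPM in batch 1, above all floxed libraries (at most 8.58 CPM), and 11.3, 12.4 and 11.2 CPM in batch 2, below them (at least 12.8 CPM). Without 1-3 its interaction was -0.89. Csrnp1 (-1.14 and -0.87), the nocturnin gene Noct (-1.03 and -0.56), Slco5a1 (-1.03 and -0.85), Rhobtb1 (-0.99 and -0.56), the matricellular Ccn2 (-0.97 and -0.64), the skeletal muscle sodium channel Scn4a (-0.96 and -0.71), the reticulophagy receptor Retreg1 (-0.94 and -0.75), the DNA polymerase gene Polq (-0.91 and -0.78) and Klhl38 (-0.90 and -0.67) made up the rest with Bhlhe40. For Rhobtb1 and Noct, 1-3 had 102 and 26.7 CPM, against 45.8 to 53.5 and 11.9 to 16.6 CPM in the other Cre-only libraries, and the interactions without it were -0.56 for both. By the smallest p the list also held Hsdl2 (-0.64 and -0.53), Castor2 (0.50 and 0.46), Pkia, an inhibitor of protein kinase A (-0.73 and -0.66), Gpcpd1 (-0.81 and -0.71) and Prepl (-0.83 and -0.59).

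The authors' deposited table for MHC CRE Only against FKl/l, which combines the batches, listed 1 of 16363 genes at an adjusted p under 0.05. In that table the statistic is 0 where the log2 fold change is under 0.263 in size, a minimum fold of 1.2 that the tests here did not use, and each gene named by rule here had an adjusted p of 1 there. Against that minimum fold, edgeR called 0 genes in the interaction, 2 in the batch 1 difference and 4 in the batch 2 difference, which are against the mean of the 3 floxed genotypes and not FKl/l alone.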

How the data were processed

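Whole-heart RNA was measured in 24 libraries, 3 for each of 4 genotypes in each of 2 batches. The authors deposited whole-number counts per gene, without normalization. The submitters' processing notes name mm10, STAR, RSEM, Trim Galore, FastQC and bcl2fastq 2.17. Settings, annotation and strand option are not given in the sources consulted, so overlapping or near-identical genes, such as Fkbp1a, Hspa8 and mitochondrial genes with nuclear copies, are less certain. For each comparison the authors also deposited log2 fold changes with p-values, raw and adjusted, and a test score, per the file headers.

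Of 56384 rows, 3660 named by a transcript (0.873 to 4.28% of counts) were left out. Gene positions are from GENCODE M21. The edgeR quasi-likelihood F-test in edgeR 4.0.16 (R 4.3.3, with limma 3.58.1) was fitted with 1 mean per genotype and batch, TMM scaling and filterByExpr (16812 genes), with 16 residual degrees of freedom and Benjamini-Hochberg adjustment over all genes, 2-sided. Errors are standard errors (SE). It was tested on simulated data. Replicates within a group differed beyond counting noise (chi-square per degree of freedom 8.37 to 99). Library measures were tested by 48400 exact permutations of the Cre-only label within batches. Alternatives included DESeq2 1.42.0, limma voom, other scaling and filters, and leaving out libraries. Named genes are Fkbp1a, the 12 highest and 12 lowest interactions and the 10 smallest p among called genes above 5 CPM in a group, and, at any level, up to 4 called members of each of 13 described lists. The comparison and the 48 lists were chosen with earlier results of these data known. Some genes that this rule takes are not reported here.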

Additional observations from a re-analysis of the deposited data

Results flagged for a closer look

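In 1094 genes the batch difference of MHC CRE Only was unlike that of the 3 floxed genotypes by the interaction test, which is what marked them for a closer look. By edgeR's test 0 were called without the library labelled MHC CRE Only 1-3, where 2898 of all genes tested had an unadjusted p under 0.05. The called genes that are named in the report had the interactions below, in log2 units.

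The lowest negative interactions were those of Pm20d2 (-1.74), Ciart (-1.58), Bhlhe40 (-1.32), Csrnp1 (-1.14), Pdpr (-1.12), Slco5a1 (-1.03), Noct (-1.03), Rhobtb1 (-0.991), Ccn2 (-0.974), Scn4a (-0.959), Retreg1 (-0.935), Polq (-0.911). Next came Klhl38 (-0.905), Ccng1 (-0.848), Dnajb4 (-0.836), Prepl (-0.829), Gpcpd1 (-0.812), mt-Nd2 (-0.796), mt-Nd5 (-0.796), Pkia (-0.729), Chrm2 (-0.71), Chordc1 (-0.694), Myocd (-0.685). Further negative values were found for Cacnb2 (-0.681), Atp2a2 (-0.66), Acsl1 (-0.657), Hsdl2 (-0.645), Rrm2b (-0.642), Wee1 (-0.635), Tef (-0.62), Slc8a1 (-0.6), Sesn1 (-0.574), Bag3 (-0.511), Pdlim5 (-0.505), Ttn (-0.471). Smaller negative values belonged to Ogdh (-0.459), Abcc9 (-0.452), Pdha1 (-0.447), Nebl (-0.444), Cd36 (-0.439), Kcnj11 (-0.433), Casq2 (-0.418), Hspa8 (-0.417), Perp (-0.403), Etfdh (-0.394), Idh3a (-0.376), Got2 (-0.362). The rest of the negative values were those of Hadhb (-0.349).

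Positive interactions were highest for Csad (1.04), Rbmx2 (1.04), Itgb4 (1.02), Ccdc191 (0.985), Renbp (0.967), Rasd1 (0.945), Id2 (0.94), Slc12a9 (0.928), Bmf (0.889), Cx3cr1 (0.887). They were lower for Cep250 (0.873), Tbx2 (0.839), Aqp7 (0.779), Tagln (0.756), Fabp4 (0.617), Tppp3 (0.506), Castor2 (0.502), Esam (0.333).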

How the results depend on the processing

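Counts of called genes are given here for each comparison and alternative that moved them by over 1.5 times, and the cause was not tested. Alternatives chosen after seeing the data were leaving out 3 libraries (MHC CRE Only 1-3 and 2-3 and FKl/l 1-1), the first 2 of these, 2 batch 1 libraries that stood apart (FKl/l 1-3 and FKl/l MCK+ 1-2), or all 5. The interaction of Cre-only with batch, 1094 genes, became 1934 without a filter, 1674 in DESeq2, 0 against a minimum fold of 1.2, 0 without the 3 libraries, 0 without the 2 Cre-only libraries and 1 without the 5, and 0 to 1491 with 1 library left out. The batch 1 difference, 1392, became 2 against that fold, 727 with a term for Y-linked level, 7 without 3, 14 without 2 Cre-only and 27 without 5 libraries, and 26 to 1787 with 1 left out. The batch 2 difference, 75, became 1215 without a filter, 396 in DESeq2, 4 against that fold, 10 with the Y-linked term, 6 without 3, 5 without 2 Cre-only and 561 without the 2 apart libraries, and 3 to 444 with 1 left out. The batch difference in Cre-only, 717, became 1446, 1186, 24 and 257 under the same first 4 settings, 1368 without the 2 apart and 1519 without 5, and 227 to 1193 with 1 left out. That of floxed hearts, 6846, became 2075 against the fold, and 6428 to 6992 with 1 left out.

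The interaction against FKl/l, 671, became 1802 without a filter, 1272 in DESeq2 and 0 against the fold, without 3, without 2 Cre-only and without 5 libraries, and 0 to 1233 with 1 left out. Against FKl/l MCK+, 352 became 578 with a filter by genotype, 1408, 1015 and 0 under the first 3 settings, 66 without the 2 apart and 0 without the other sets, and 0 to 1152 with 1 left out. Against FKl/l MHC+, 213 became 491 with the filter by genotype, 940, 769 and 0 under those 3, 0 with the Y-linked term, 798 without the 2 apart, 0 without 3 or 2 Cre-only libraries, and 0 to 636 with 1 left out. The same contrast for FKl/l, 0 genes, became 519 without a filter and 11 in DESeq2, and 0 to 1 with 1 left out, and for FKl/l MCK+ 409 without a filter, and 0 with any 1 left out. For FKl/l MHC+, 101 became 60 without mitochondrial genes in the library sizes, 662 without a filter, 462 in DESeq2, 43 in limma voom, 0 against the fold and with the Y-linked term, 153, 43, 242 and 464 without 3, 2 Cre-only, 2 apart and 5 libraries, and 0 to 301 with 1 left out. The mitochondrially encoded share, -4.01 points, was -4.27 (exact permutation p = 0.0399) over protein-coding genes alone, and -4.63 to -3.26 with 1 library left out (exact permutation p 0.0396 to 0.155; leaving out floxed libraries was chosen after seeing the data). Its p fell under 0.05 without MHC CRE Only 1-1 or 2-3, FKl/l 1-1, FKl/l MCK+ 1-1, 1-3 or 2-3, or FKl/l MHC+ 1-3.

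The labels do not say whether replicate numbers pair the libraries. Of 36 pairs with the same number in a batch, 9 had deviations correlated over 0.1 (range -0.352 to 0.216), which does not settle it. With the replicate block the interaction had 751 genes, the batch 2 difference 19, the batch difference 377 in Cre-only and 3646 in floxed hearts, the interactions against FKl/l, FKl/l MCK+ and FKl/l MHC+ 239, 0 and 117, and that of FKl/l MHC+ 21. Of the 68 named genes called, 68 were also called in DESeq2, 61 in limma voom, 14 without MHC CRE Only 2-3 and 0 without 1-3, and none reversed. With 3 libraries per genotype and batch, 1 library can decide a call.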
